A study of Mus musculus with 4 samples.

Results

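Chemokines are small secreted proteins that steer the movement of blood cells, and 6 of their genes were followed here through the stem and progenitor cells of mouse bone marrow: Ccl3, Ccl4, Ccl5, Ccl6, Ccl9 and Cxcl10. They were picked by gene symbol, out of 32285 genes, and all 6 had rows in both count matrices. The choice was made with earlier results of the same counts known, the Cxcl10 value between the tdTomato gates among them, so the differences between gates and chemistries are given as descriptions, with the call of a whole-table fit and no p-value. Nothing was set as a threshold of level, and all 6 genes passed the low-count filter of both fits.

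The cells came from 2 male mice, 3 months old, of the genotype Tppp3CreER LSLTdTomato, in which a Cre recombinase that tamoxifen switches on is tied to Tppp3 and removes a stop cassette from a tdTomato reporter. Both mice received tamoxifen at postnatal days 0 and 3, so the reporter marks cells in which the Cre was active in the newborn, and their descendants, and the negative cells carry the same alleles and had the same drug. Lineage-negative, Sca-1-positive, Kit-positive (LSK) cells, a compartment of haematopoietic stem cells (HSCs) and multipotent progenitors, were sorted into tdTomato-positive and tdTomato-negative tubes for each mouse, tagged with hashtag antibodies and loaded in part on GEM-X, and in part on v3.1, which are droplet kits of 10x Genomics. The series holds 4 samples in 4 groups of 1, a gene expression and a hashtag library for each chemistry.

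The analysis covered 32330 cells with a single hashtag: 3867 and 3933 tdTomato-positive cells of mouse 1 and mouse 2, and 12144 and 12386 tdTomato-negative cells. The GEM-X matrix held 234563105 unique molecular identifiers (UMIs, counts of captured RNA molecules) and the v3.1 matrix 178214937, with 0 barcodes in common. Each of the 8 combinations of tube and chemistry held between 13883381 and 78814028 UMIs. Levels are UMIs of a gene per 1000000 UMIs (CPM), summed over cells. Intervals are exact 95% Poisson or binomial ones and cover counting error only. LSK cells are sorted to lack mature lineage cells. Clusters with markers of lymphoid progenitors and of megakaryocyte, granulocyte-monocyte, B, erythroid and T or NK lineages were present. They ran from 79 T and NK cell-like to 1857 lymphoid progenitor-like cells. Whether any of these cells were mature was not tested.

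Ccl3 and Ccl4 (macrophage inflammatory proteins) signal through Ccr1 and other receptors, and Ccl3 is known as an inhibitor of the proliferation of haematopoietic progenitors. Ccl5 is a product of activated T and NK cells and binds Ccr1 and Ccr3 among others. Ccl6 and Ccl9 are rodent chemokines of myeloid cells that act through Ccr1, and Cxcl10, the ligand of Cxcr3, is a classical target of interferons and of NF-kappaB.

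By the GENCODE M21 annotation (mm10), 5 of the genes lie on chromosome 11. Ccl5 (ENSMUSG00000035042; 83525778 to 83530518, minus strand) is followed by Ccl9 (ENSMUSG00000019122; 83572919 to 83578636, minus), Ccl6 (ENSMUSG00000018927; 83587882 to 83593087, minus), Ccl3 (ENSMUSG00000000982; 83647844 to 83649355, minus) and Ccl4 (ENSMUSG00000018930; 83662584 to 83664683, plus). Cxcl10 (ENSMUSG00000034855) is on chromosome 5 from 92346638 to 92348889, minus strand, inside the span of Art3, which is read from the other strand. The gaps are 9245 bp between Ccl9 and Ccl6, and 13228 bp between Ccl3 and Ccl4, with 0 protein-coding genes in either. No stretch of 77 bases of any of the 6 longest transcripts occurs in a transcript of another gene, although the aligned parts of the Ccl6 and Ccl9 transcripts are 73.5% identical and those of Ccl3 and Ccl4 70.3%. Ccl6 is overlapped by E230016K23Rik on the plus strand.

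The bases before the transcription starts of Cxcl10, Ccl9 and Ccl6 are shown because 11 of the 12 cells with the most Cxcl10 were also rich in interferon-induced RNA, while Ccl9 and Ccl6 had their highest cluster levels in granulocyte-monocyte-like cells. The sequences are RefSeq's (GRCm38.p6), 250 bases 5′ to 3′ on the minus strand, and end at the base before the start. They cover chr5:92348890-92349139 for Cxcl10, chr11:83578637-83578886 for Ccl9 and chr11:83593088-83593337 for Ccl6. Capitals mark matches, on either strand, to an interferon response element (GAAA, 2 bases of any kind, GAAA), a kappaB site (GGGA, 4 bases of any kind, CC), a PU.1 box (AGGAAGTG) or a TATA box (TATAAA).
Cxcl10: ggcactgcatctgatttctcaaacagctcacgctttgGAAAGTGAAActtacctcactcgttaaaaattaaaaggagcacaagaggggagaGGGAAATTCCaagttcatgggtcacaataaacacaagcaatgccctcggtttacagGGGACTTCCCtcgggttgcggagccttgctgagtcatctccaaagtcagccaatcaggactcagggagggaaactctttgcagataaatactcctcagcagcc
Ccl9: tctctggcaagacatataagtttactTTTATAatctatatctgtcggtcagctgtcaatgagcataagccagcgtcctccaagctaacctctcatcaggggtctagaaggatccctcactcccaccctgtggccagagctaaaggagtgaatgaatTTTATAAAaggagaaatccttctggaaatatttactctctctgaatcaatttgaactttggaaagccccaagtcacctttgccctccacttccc
Ccl6: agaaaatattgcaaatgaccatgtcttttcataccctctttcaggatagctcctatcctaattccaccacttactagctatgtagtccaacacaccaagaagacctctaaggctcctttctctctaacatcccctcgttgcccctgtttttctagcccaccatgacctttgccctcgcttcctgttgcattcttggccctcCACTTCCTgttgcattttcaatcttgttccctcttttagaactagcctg

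The Cxcl10 window holds 1 interferon response element, from 213 to 204 bases before the start, and kappaB letters from 159 to 150 and from 103 to 94, the second of which reads as the motif on both strands. Of 32851 promoter windows of 300 bases in the same table, 3.44% hold the interferon response element and 20.7% the kappaB letters. Ccl6 has a PU.1 box on the opposite strand from 49 to 42 bases before the start (4.07% of windows hold one), and Ccl9 has TATA letters on both strands between 94 and 87 bases and once more from 224 to 219 (13.6% of windows). A matched stretch of 67 aligned bases around the starts of Ccl6 and Ccl9 is 86.6% identical. The Ccl3 window holds none of the 4 motifs. These are matches of letters in a window and say nothing of binding.

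The 6 genes fell into broadly spread and highly concentrated ones. Ccl9 had 16367 UMIs in 8341 cells (25.8% of cells, 50.7 CPM), Ccl4 had 7174 UMIs in 5363 cells (16.6%, 22.2 CPM) and Ccl3 had 4851 UMIs in 3609 cells (11.2%, 15.0 CPM). For these genes no cell held more than 0.321% of the UMIs, and it took 1956, 1776 and 1184 of the richest cells to reach 50% of the total for Ccl9, Ccl4 and Ccl3 in that order. Ccl6 was sparse, with 443 UMIs in 383 cells (1.18%, 1.37 CPM), of which 93.7% had a single UMI.

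Ccl5 and Cxcl10 were the concentrated ones. Ccl5 had 2796 UMIs (8.66 CPM) in 478 cells (1.48%), with 50% of them in 21 cells and 148 in the richest cell. Cxcl10 had 428 UMIs (1.33 CPM) in 91 cells (0.281%), with 50% of them in 4 cells and 80 in the richest, which alone held 18.7%. With every cell thinned to 5000 UMIs, which left out 3430 shallower cells, 17.3% of 28900 cells had a Ccl9 UMI, 10.3% Ccl4, 7.06% Ccl3, 1.06% Ccl5, 0.543% Ccl6 and 0.18% Cxcl10. The order of the 6 genes was the same as without thinning.

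**Figure D1:**
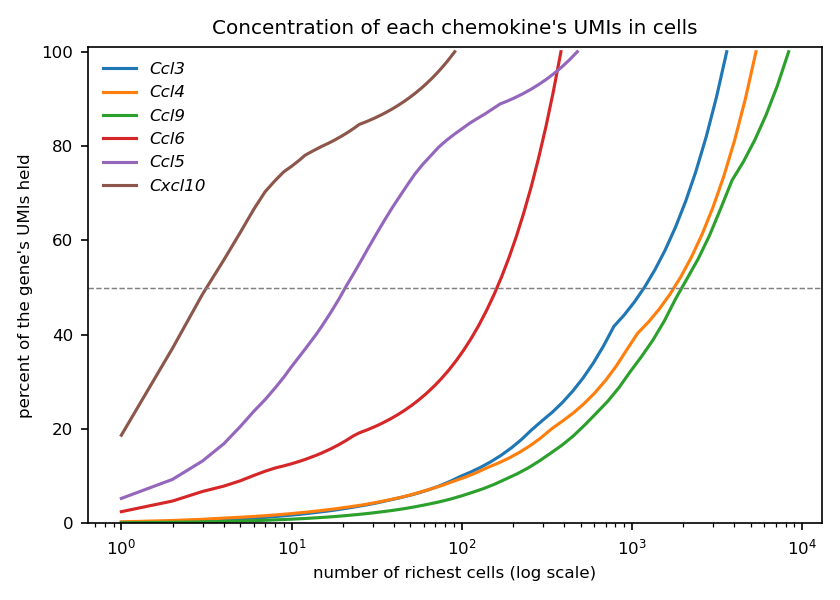
Percent of each gene's UMIs (vertical axis) held by the richest cells, ranked by their UMIs of that gene (horizontal axis, number of cells, log scale), over 32330 cells, with a dashed line at 50%. The lines of Cxcl10 and Ccl5 pass 50% at 4 and 21 cells, and those of Ccl3, Ccl4 and Ccl9 at more than 1000.

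Cells were grouped into 19 clusters from variable genes that left out all chemokine ligands, and 8 clusters were named from marker lists, 2 of them HSC-like. The 11 unnamed clusters held 23903 cells and are called by number and leading genes. Cluster levels are descriptions, with the range over the 4 tubes as their spread. The erythroid-like cluster is given as a low reference and not as a floor for free RNA, which was not measured. It held 167 cells, with a median of 34489 UMIs, against 8529 in all cells. Its levels were 2.27 CPM of Ccl9, 1.22 of Ccl3, 0.698 of Ccl4 and 0.175 (1 UMI) of each of Ccl5, Ccl6 and Cxcl10. Free RNA of a droplet would be a smaller part of such deep cells, so shallower clusters are not read against these values. After thinning, 0 of 166 erythroid-like cells had a UMI of any of the 6 genes, which allows a share of up to 1.81%. The unthinned shares of erythroid-like cells with a UMI were 7.19% for Ccl9 and 0.599% for Ccl5, Ccl6 and Cxcl10.

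Ccl9 was highest in the granulocyte-monocyte-like cluster, at 147 CPM (tubes 112 to 164), where 85.9% of 447 cells had a UMI. It stood at 108 in cluster 7 (98.0 to 113; led by Wfdc17 and Satb1) and at 100 in cluster 0 (81.7 to 118; Rab44, Mcpt8 and Mpo among its leading genes). The tube ranges of clusters 7 and 0 overlap, as do those of the granulocyte-monocyte-like cluster and each of them. Clusters 3, 13, 4 and 8 followed between 52.9 and 58.2 CPM with overlapping ranges, and the lymphoid progenitor-like cluster had 43.6 (41.0 to 47.0).

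At the low end Ccl9 had 7.59 CPM in HSC-like cluster 6 (5.85 to 8.12), 5.76 in cluster 2 and 4.83 in the megakaryocyte-platelet-like cluster (4.57 to 5.73). HSC-like cluster 9 had 18.5 (15.9 to 22.5), above the range of cluster 6. After thinning, 48.7% of granulocyte-monocyte-like cells, 3.71% of cluster 6 and 2.39% of megakaryocyte-platelet-like cells had a Ccl9 UMI. The 34 cells with at least 10 Ccl9 UMIs lay in the granulocyte-monocyte-like cluster (17), in cluster 4 (10), which is led by genes of cell division, in cluster 0 (6) and in cluster 7 (1). Their summed level of the granulocyte-monocyte list was 14110 CPM, against 2042 CPM in all other cells. A limit in raw UMIs favours deep cells. The median depth was 25341 UMIs in the granulocyte-monocyte-like cluster and 16164 in cluster 4, against 8529 in all cells.

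The genes most like Ccl9 across cells, by the mean of the correlations of log-scaled counts within each chemistry, were Mpo (r = 0.40), Atp8b4 (0.35), Ctsg (0.35), Plac8 (0.33) and H2afy (0.32). Mpo and Ctsg encode granule proteins of neutrophil and monocyte precursors. These values describe cells that share libraries and depth, and no p-value was computed.

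Ccl6, the neighbour of Ccl9, was highest in the same cluster. The granulocyte-monocyte-like cluster had 10.2 CPM of Ccl6 and 25.1% of its UMIs (111 of 443), while holding 3.36% of all UMIs. In the other clusters its level lay between 0 and 1.76 CPM, with 1 to 3 UMIs in the megakaryocyte-platelet-like, erythroid-like and T and NK cell-like clusters. After thinning, 4.62% of granulocyte-monocyte-like cells had a UMI, against 0.859% in cluster 8, the next among clusters of more than 100 cells. Only 6 cells had at least 5 Ccl6 UMIs, and 5 of them lay in this cluster.

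Those 6 cells held 11, 10, 9, 5, 5 and 5 Ccl6 UMIs, and 4 of them came from a single tube, the tdTomato-negative one of mouse 2. The cells with 11 and 9 UMIs and 1 of those with 5 (cell depths 3068, 3288 and 2318 UMIs) had 79857, 167275 and 66005 CPM of the neutrophil list (S100a8, S100a9 and other neutrophil genes). The cell with 10 UMIs lay in cluster 3 and had 0 UMIs of the neutrophil list and 8977 CPM of the mast-basophil list. The genes most like Ccl6 were Lgals3 (r = 0.23), Ccr1 (0.16), Alox5 (0.15), Fcgr3 (0.15) and Hdc (0.15). Ccr1, a receptor for Ccl6, had 210 UMIs in 193 cells in all.

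Ccl3 and Ccl4 were low in the cluster where Ccl9 and Ccl6 were highest. In the granulocyte-monocyte-like cluster Ccl3 had 1.38 CPM and Ccl4 had 2.58, and in the megakaryocyte-platelet-like cluster they had 0.753 and 3.70. Ccl3 was highest in cluster 8 at 46.7 CPM (tubes 40.7 to 54.1), whose leading genes included Ifit1, Wfdc17, Sema3d, Rsad2 and Isg15. The lymphoid progenitor-like cluster had 36.8 (34.2 to 44.3), cluster 11 (led by Il1rapl2, Cd74 and Ltb) had 35.6 (32.1 to 39.3) and cluster 7 had 30.6 (28.7 to 34.3), and the ranges of neighbours in this order overlap. HSC-like clusters 9 and 6 had 16.7 and 13.7.

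Ccl4 was highest in cluster 11 at 60.1 CPM (48.7 to 87.0), then in cluster 8 at 51.9 (45.8 to 71.7), HSC-like cluster 6 at 47.8 (40.8 to 50.1) and HSC-like cluster 9 at 35.6 (31.6 to 41.0), again with overlapping neighbours. The HSC-like clusters held 18.4% of Ccl4 UMIs, 9.94% of Ccl3 UMIs and 9.80% of all UMIs. The lymphoid progenitor-like cluster held 15.3% of Ccl3 UMIs, 7.90% of Ccl4 UMIs and 6.26% of all UMIs. Both shares moved with the clustering, since the named classes grew: at Leiden resolution 0.5 the HSC-like class held 32.9% of Ccl4 UMIs and 18.7% of all UMIs, and the lymphoid progenitor-like class 45.6% of Ccl3 UMIs and 17.6% of all UMIs. At resolution 2 these were 28.7% and 16.2% for the HSC-like class, and 27.3% and 13.5% for the lymphoid progenitor-like class.

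The balance of the pair therefore differed between clusters. Of the UMIs of both genes, Ccl4 made up 87.4% in cluster 2 (95% interval 84.0 to 90.3), 83.1% in the megakaryocyte-platelet-like cluster (72.3 to 91.0) and 77.7% in HSC-like cluster 6 (75.0 to 80.3). Cluster 2 had all 12 HSC markers raised and was led by immunoglobulin genes, so it was left unnamed. HSC-like cluster 9 stood at 68.0%, cluster 8 at 52.7% (50.3 to 55.0), cluster 7 at 46.8% and the lymphoid progenitor-like cluster at 43.2% (40.5 to 46.0). Capture may differ between the 2 transcripts, so the share is compared between clusters and is not a ratio of molecules in the cell.

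**Figure D2:**
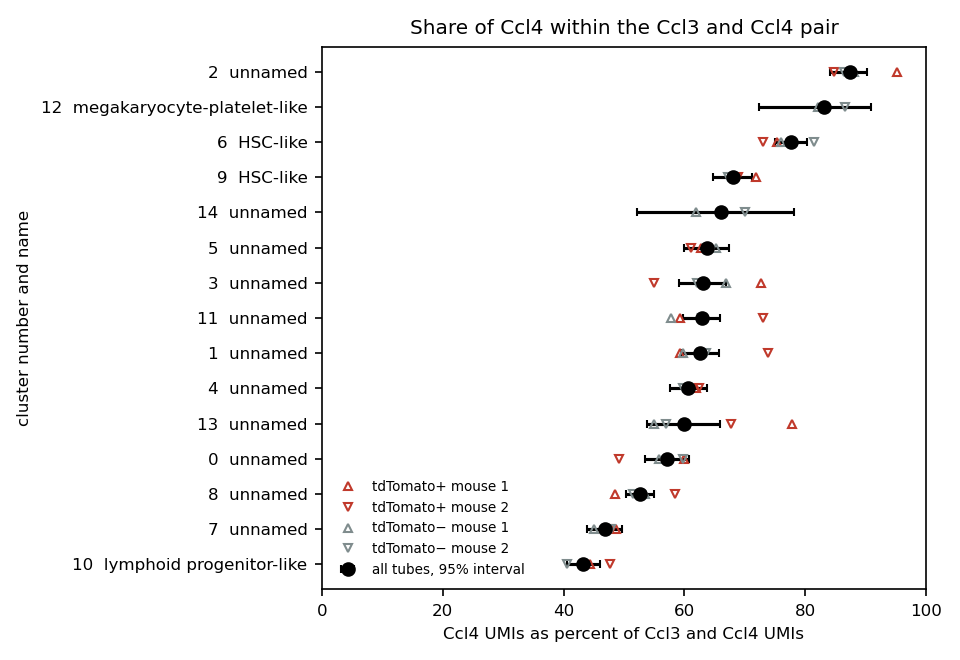
Ccl4 UMIs as percent of Ccl3 and Ccl4 UMIs together (horizontal axis) in each of the 15 clusters with at least 50 such UMIs. Filled points are all tubes with the exact 95% binomial interval and open triangles the single tubes, with clusters running from 87.4% in cluster 2 down to 43.2% in the lymphoid progenitor-like cluster.

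At a depth of 5000 UMIs a cell can miss a gene that it expresses, so shares are compared and absence is not read. After thinning to 5000 UMIs, 341 of 2039 cells with Ccl3 also had Ccl4 (16.7%), against 9.77% of the cells without Ccl3. Within cluster 8 the shares were 20.4% and 19.0%, and within cluster 11 they were 18.5% and 18.8%. Within the lymphoid progenitor-like cluster they were 23.2% and 11.4%. Across all cells the correlation of Ccl3 with Ccl4 was weak (mean r = 0.09) and is not read further.

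The genes most like Ccl3 were Flt3 (r = 0.22), a receptor of multipotent and lymphoid progenitors, Wfdc17 (0.21), Satb1 (0.18), Ighm (0.17) and Sema3d (0.15). For Ccl4 they were Ifitm1 (0.12), Hlf (0.12), Lmo2 (0.11), Wfdc17 (0.11) and Ltb (0.10). Hlf encodes a transcription factor of HSCs. The 38 cells with at least 5 Ccl3 UMIs lay mostly in the lymphoid progenitor-like cluster (12) and in cluster 8 (11), and had 933 CPM of the immediate early list (Fos and other genes induced within minutes of a stimulus), against 205 in other cells. That is a level over their summed UMIs; the median cell of the 38 was at 306 CPM, against 160 for the median of other cells.

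The 12 cells with at least 10 Ccl4 UMIs held 23, 21, 18, 18, 13, 12, 12, 11, 11, 10, 10 and 10 of them, 5 in cluster 11 and 3 in HSC-like cluster 6. Their immediate early list was at 2581 CPM and their NF-kappaB list at 1890, against 205 and 369 in other cells, with medians over the 12 cells of 689 and 628 CPM, against 160 and 344. A single one of them, with 21 Ccl4 UMIs and 9081 UMIs in all, had 20923 CPM of the immediate early list, and the other 11 had 137 to 1797.

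Ccl5 belonged above all to the T and NK cell-like cluster. Its 79 cells, 0.244% of the cells, held 48.9% of Ccl5 UMIs (1366), at 1529 CPM, and 64.6% of them had a UMI. The 4 tubes ran from 115 to 2591 CPM in this cluster (median 983), far wider than the counting interval of 1449 to 1612. The next cluster was cluster 8 at 11.2 CPM, and the lymphoid progenitor-like cluster had 9.84. Among the genes most like Ccl5 were Tcf7 (r = 0.40), Trbc1 (0.36), Trbc2 (0.31) and Trat1 (0.18), all genes of T cells. In the T and NK cell-like cluster 11 of the 17 markers of its list were detected, and all 11 were raised. Of the lymphoid progenitor list 8 of 10 detected markers were raised there too.

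Ccl5 also had a second set of rich cells. Of the 79 cells with at least 5 Ccl5 UMIs, 32 lay in the T and NK cell-like cluster (1335 UMIs) and 47 in 14 other clusters (926 UMIs), among them 8 in cluster 8 and 8 in the lymphoid progenitor-like cluster. In the 32 cells the T and NK cell list was at 2757 CPM, with Tcf7 in 30 cells and Trbc2 in 26. In the 47 cells it was at 59.8 CPM, with Tcf7 in 0 cells and Trbc2 in 1; Cd3e was in 0 of the 47 and in 3 of the 32. The interferon response list, over summed UMIs, was at 1541 CPM in the 47 cells and at 299 in the 32. The median over all 79 cells was 398 CPM, against 315 in other cells, and 4 of the 47, with 27, 24, 21 and 6 Ccl5 UMIs, are also among the 12 cells with at least 5 Cxcl10 UMIs and had 3301 to 18785 CPM.

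The genes raised most in the 47 cells over other cells outside the cluster, by a ratio chosen after the cells were picked, included the interferon-induced Rsad2 (202 against 4.72 CPM), Ifit1 (220 against 7.84) and Isg15 (232 against 22.7). Their UMIs lay in 12, 16 and 24 of the 47 cells. Gpc5, a glypican, ranked between Ifit1 and Isg15 (80.3 against 2.52 CPM) with UMIs in 7 cells. Kit was present in 37 of the 47 cells (243 CPM) and also in 24 of the 32 (241 CPM). Of the 47, 1 was called a doublet by Scrublet. The 47 cells lay at a median depth of 8945 UMIs, close to the 8529 of all cells.

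**Figure D3:**
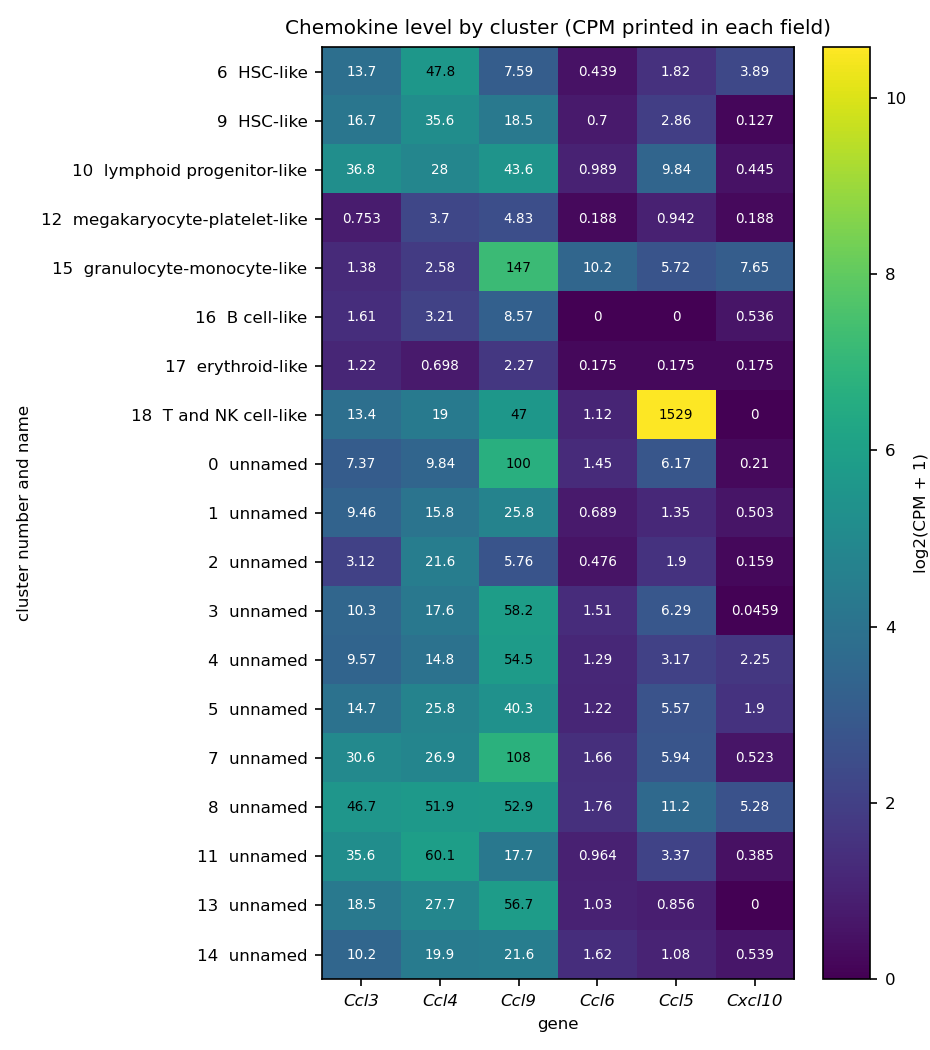
Level of the 6 chemokines (columns) in the 19 clusters (rows; named ones first), coloured by log2(CPM + 1) with the CPM printed. Ccl9 peaks at 147 in the granulocyte-monocyte-like cluster, Ccl5 at 1529 in the T and NK cell-like cluster, and Ccl3 and Ccl4 at 46.7 in cluster 8 and 60.1 in cluster 11.

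Cxcl10 had no cell type of its own. Cluster levels followed single cells: 80 of the 83 UMIs of the granulocyte-monocyte-like cluster (7.65 CPM) came from 1 cell, and 1 cell each held 49 UMIs in HSC-like cluster 6 (3.89 CPM), 79 in cluster 4 (2.25) and 31 in cluster 5 (1.90). Cluster 8 was the exception, with 96 UMIs (5.28 CPM) in 12 cells. The T and NK cell-like cluster had 0 UMIs, which allows up to 3.36 CPM.

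The 12 cells with at least 5 Cxcl10 UMIs, 7 of them in cluster 8, held 80, 79, 49, 31, 25, 21, 16, 10, 8, 5, 5 and 5, together 78.0% of the total. Their interferon response list was at 5939 CPM, against 404 CPM in all other cells, with all 15 genes of the list present, and their NF-kappaB list was at 975 against 369. Of these 12 cells, 11 had 2937 to 18785 CPM of the interferon list, and the richest, a granulocyte-monocyte-like cell of 35254 UMIs, had 539. Rsad2 (733 against 4.68 CPM), Ifit1 (733 against 7.83) and Ifit3 (312 against 1.07) led the genes raised in them. The list holds known interferon targets, the kind of gene that Cxcl10 is known to be, and the cells were picked by Cxcl10, so the lists are a description of 12 cells.

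Of the other members, Ccl5 had the most UMIs in these 12 cells. It had 80 UMIs in 5 of the 12 cells (510 CPM, against 8.41 in other cells), with 27, 24, 21, 6 and 2 UMIs. Ccl4 also had UMIs in 5 of the 12 cells (7, 3, 1, 1 and 1) and Ccl9 in 3 (4, 3 and 3), and Ccl3 and Ccl6 had 1 and 0 UMIs. The genes most like Cxcl10 were Ifit3 (r = 0.20), Serpina3f (0.16), Rsad2 (0.16), Ms4a4c (0.12) and Ifit1 (0.12). These rest on few cells, and the correlation with Ifit3 was 0.08 in GEM-X and 0.32 in v3.1.

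Between the tdTomato gates the broad chemokines lay close together. Ccl3 had 14.3 and 13.5 CPM in the tdTomato-positive tubes of mouse 1 and mouse 2, against 16.0 and 14.6 in the tdTomato-negative tubes. Ccl4 had 20.2 and 23.7 in positive tubes, against 21.4 and 23.4 in negative tubes. Ccl3 was lower in the positive tube of both mice, and Ccl4 overlapped between the gates. The fitted log2 fold changes were -0.13 ± 0.06 for Ccl3 and -0.019 ± 0.050 for Ccl4 (SE of the fit, n = 2 mice), neither of them called.

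Ccl9 had 63.4 and 40.7 CPM in the positive tubes, against 57.2 and 41.7 in the negative tubes. The 2 mice stood apart and the gates did not (log2 fold change 0.08 ± 0.04, not called). Mouse 1 was above mouse 2 by 0.64 on the log2 scale in the positive tubes and by 0.46 in the negative ones, with 1 animal each and thus no test. Within clusters of at least 50 Ccl9 UMIs, mouse 1 was higher in 12 of 15, and in 12 of 15 in both gates. Granulocyte-monocyte-like cells made up 3.49% and 1.09% of the positive tubes, against 1.33% and 0.864% of the negative tubes. Of their list 8 of 13 genes were called higher in the positive tubes, where 0.555% of 16586 genes were called higher. Without the mouse as a block 0 genes of the whole table were called. In the same 15 clusters Ccl9 was higher in the positive tube of both mice in 1, lower in both in 5 and mixed in 9. Without the named lineages other than HSC its log2 fold change between the gates was 0.01 ± 0.03, not called. The part of granulocyte-monocyte-like cells in the Ccl9 values was not tested.

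Ccl6 had 1.54 and 1.46 CPM in the positive tubes, against 1.34 and 1.32 in the negative tubes. It was higher in the positive tube of both mice by less than the counting intervals (log2 fold change 0.19 ± 0.19, not called). Without the richest cell of each tube it had 1.49 and 1.18 CPM in positive tubes, against 1.32 and 1.23 in negative tubes. The fit without the leading cell of each tube and chemistry gave 0.03 ± 0.19, not called. Sums over all cells of a tube do not separate fewer cells of a type from less RNA per cell. Only 3 clusters held at least 50 Ccl6 UMIs, and the gates were not compared within them.

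Ccl5 had 6.05 and 8.76 CPM in the positive tubes, against 6.36 and 12.2 in the negative tubes, a fitted log2 fold change of -0.28 ± 0.08 that was not called. The positive tubes held 8 and 10 T and NK cell-like cells, against 19 and 42 in the negative tubes (0.207% and 0.254% of cells, against 0.156% and 0.339%). Of the 9 tested genes of their list 1 was called, Ncr1, higher in the positive tubes. Only 2 of the 9 had a positive log2 fold change, and the median was -0.084. The part of these cells in the Ccl5 values was not tested. Cells with at least 5 UMIs numbered 9 and 9 in positive tubes, against 27 and 34 in negative ones. Without those cells Ccl5 stood at 1.88 and 1.81 CPM in positive tubes and at 1.74 and 1.45 in negative ones. The direction turned with the cells counted: the log2 fold change was 0.44 ± 0.10 without the named lineages other than HSC (called, higher in the positive tubes), -0.84 ± 0.10 without the leading cell of each tube and chemistry (called, lower), 0.27 ± 0.09 in GEM-X alone (not called) and -1.02 ± 0.12 in v3.1 alone (called, lower).

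Cxcl10 was the 1 member of 6 called between the gates, where 0.796% of 16586 genes were called in either direction, 0.555% as higher and 0.241% as lower. It had 3.05 and 2.78 CPM in the positive tubes, against 1.15 and 0.461 in the negative tubes, a log2 fold change of 1.90 ± 0.19. It was not called without the mouse as a block (1.85), nor with any 1 tube left out (1.33 to 2.69), fits in which 0 to 1 genes of the whole table were called. Cxcl10 stayed called by DESeq2 (1.985), without the leading cell of each tube and chemistry (1.85) and without the named lineages other than HSC (1.32). Since the contrast between the gates was known when the gene was picked, nothing is read from the call. The number of UMIs behind it was 127 and 97 in positive tubes, against 151 and 53 in negative tubes.

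Few cells held most of these UMIs. The tdTomato-positive tubes held 4 and 3 cells with at least 5 Cxcl10 UMIs, with 114 and 85 UMIs in them, against 4 and 1 cells with 110 and 25 UMIs in the negative tubes. Without these 12 cells, Cxcl10 stood at 0.313 CPM (0.167 to 0.535) and 0.345 (0.178 to 0.602) in positive tubes, and at 0.312 (0.224 to 0.423) and 0.244 (0.162 to 0.352) in negative tubes, with intervals that overlap throughout. Of the interferon response list 0 of 15 genes were called between the gates, with a median log2 fold change of -0.022 beside 0.0017 over all genes tested, and of the NF-kappaB list 0 of 12. At an unadjusted p under 0.05 edgeR gave 1 of the 15 and 2 of the 12. After thinning, the shares of cells with a Cxcl10 UMI were 0.281% and 0.239% in positive tubes, against 0.178% and 0.13% in negative tubes.

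The same contrast also changed with the chemistry, and in GEM-X its direction differed between the mice. In GEM-X, Cxcl10 had 3 and 8 UMIs in the positive tubes of mouse 1 and mouse 2 (0.121 and 0.382 CPM), against 108 and 19 in the negative tubes (1.37 and 0.279 CPM). In v3.1 it had 124 and 89 UMIs in the positive tubes (7.34 and 6.41 CPM), against 43 and 34 in the negative tubes (0.815 and 0.727 CPM). The richest cell gave 80 of the 124 UMIs, 49 of the 89 and 79 of the 108. Fitted alone, GEM-X gave a log2 fold change of -1.70 ± 0.65, not called, and v3.1 gave 3.16 ± 0.21, called.

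**Figure D4:**
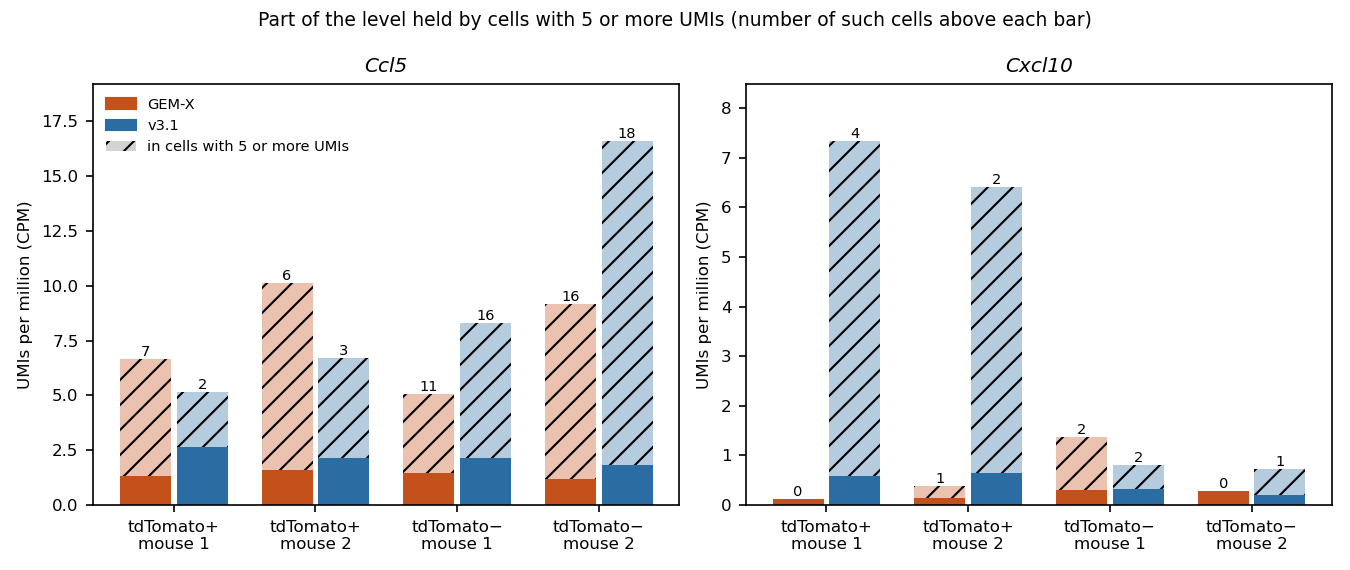
Level of Ccl5 (left) and Cxcl10 (right) in each tube, in GEM-X (left bar of a pair) and v3.1 (right bar), in CPM. The hatched part is held by cells with at least 5 UMIs of the gene, whose number stands above the bar; the plain parts lie between 1.18 and 2.67 CPM for Ccl5 and between 0.121 and 0.649 CPM for Cxcl10.

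Other genes of the chemokine system were followed from gene lists. Beside the counts below, 0.796% of 16586 genes were called between the gates in either direction, and 0.555% as higher. Of the 6 receptors of the members, 5 were tested between the gates and 0 called by edgeR (0 also at an unadjusted p under 0.05), with 210 UMIs of Ccr1 and 94 of Cxcr3 among them. Of 17 other chemokine receptors 12 were tested and 1 was called, Ccr2, a receptor of monocytes (higher in the positive tubes, log2 fold change 0.90 ± 0.11). Of 31 other chemokine ligands in the matrices 12 were tested and 1 was called, Pf4, a granule chemokine of platelets (higher, 1.04 ± 0.05). Of the immediate early list 4 of 9 tested genes were called, all higher in the positive tubes, Fos among them (0.63 ± 0.09). The median log2 fold changes were 0.04, 0.09, 0.10 and 0.10 for the tested genes of these 4 lists, in the order given. Without the mouse block none of the genes of the whole table was called, these included. Ccl25 had 12485 UMIs and Cxcr4 7946, and neither was called.

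Each tube was run in both chemistries, with all tubes pooled in a single gene expression library per chemistry. The tubes of a chemistry are therefore not separate runs of its kit. The fit with the tube as a block called 75% of 15218 genes, 38.4% as higher and 36.6% as lower in GEM-X, and the counting software version went with the chemistry. The kit, its single library and the software cannot be told apart. Against that background 5 of the 6 members were called, all lower in GEM-X, and the 6th, Ccl6, was not (0.05 ± 0.16). Without the tube as a block Ccl3, Ccl5 and Ccl9 were not called (-0.20, -0.29 and -0.24).

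Ccl4 had 16.6, 20.4, 19.1 and 20.9 CPM in GEM-X, against 25.6, 28.8, 24.9 and 27.0 in v3.1 (positive mouse 1 and mouse 2, then negative mouse 1 and mouse 2). All 4 GEM-X values lay below all 4 v3.1 values. The log2 fold change was -0.42 ± 0.04 (SE of the fit, n = 4 tubes of 2 mice, in a single library per chemistry). The direction held in 14 of the 14 clusters with at least 50 Ccl4 UMIs.

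Ccl9 had 60.8, 37.2, 51.4 and 38.5 CPM in GEM-X, against 67.2, 46.0, 65.8 and 46.3 in v3.1, lower in GEM-X in each tube while the groups overlap through the mice. Its log2 fold change was -0.25 ± 0.03, and GEM-X was lower in 15 of 15 clusters. Ccl3 had 13.3, 13.4, 14.5 and 13.7 CPM in GEM-X, against 15.9, 13.7, 18.3 and 15.8 in v3.1, a log2 fold change of -0.21 ± 0.05, with GEM-X lower in 12 of 13 clusters.

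Ccl6 had 1.62, 1.19, 1.32 and 1.44 CPM in GEM-X, against 1.42, 1.87, 1.37 and 1.15 in v3.1, with a direction that differed between tubes. Behind the value of 1.87, 2 cells held 15 of the 26 UMIs. The concentrated genes were called lower in GEM-X but not in every tube. Ccl5 had 6.67 and 10.1 CPM in GEM-X, against 5.15 and 6.70 in v3.1, in the positive tubes, and 5.05 and 9.18 in GEM-X, against 8.31 and 16.6 in v3.1, in the negative tubes (fitted -0.44 ± 0.14). It was not called by DESeq2 (-0.16), without the negative tube of mouse 1 (-0.31) or without that of mouse 2 (-0.17). Cxcl10 was lower in GEM-X in 3 of 4 tubes (fitted -1.73 ± 0.51), and without the positive tube of mouse 1 it was no longer called (-0.97). Of its 12 rich cells, 3 were in GEM-X and 9 in v3.1.

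**Figure D5:**
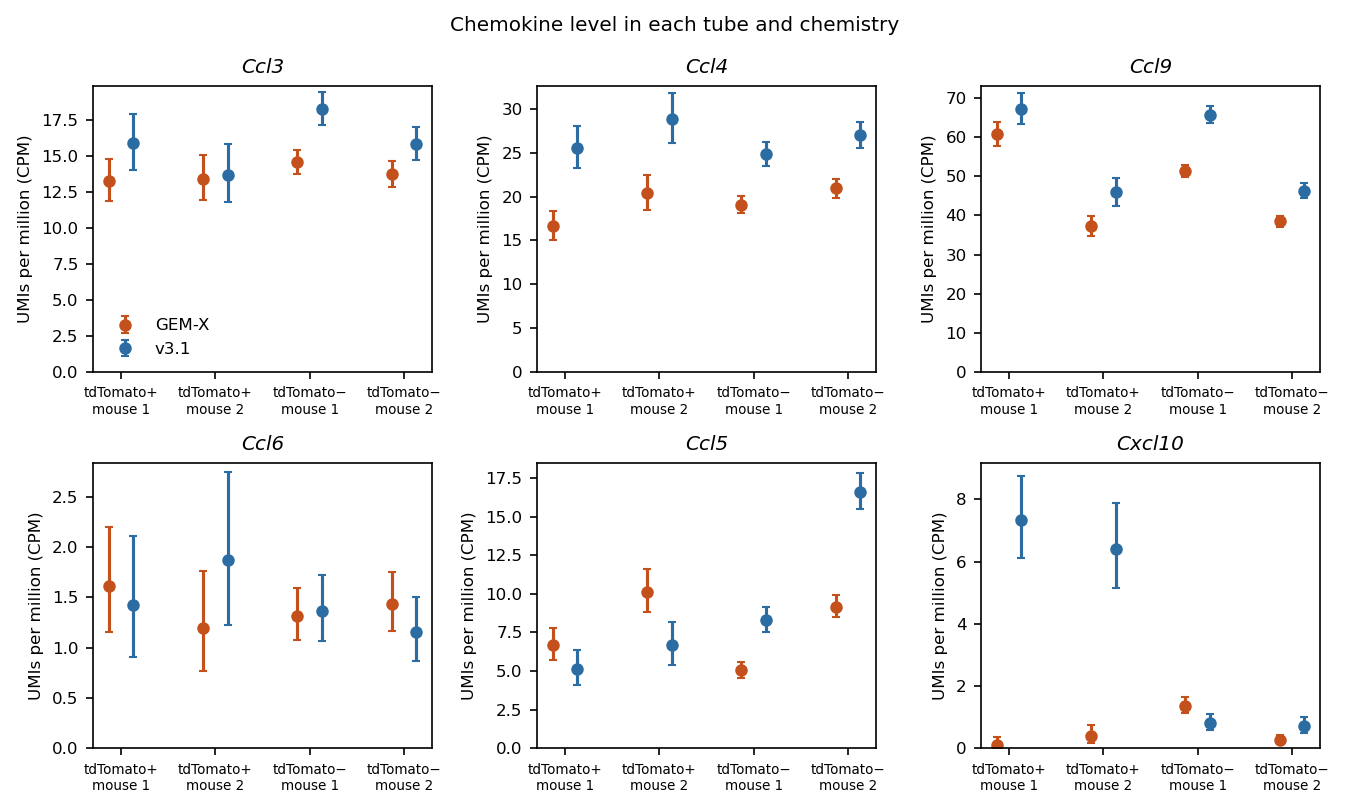
Level of each chemokine (CPM, from 0) in the 4 tubes, with GEM-X left of v3.1 at each tube and exact 95% Poisson intervals as bars. Ccl4 lies between 16.6 and 20.9 in GEM-X and between 24.9 and 28.8 in v3.1, while Cxcl10 stands above 6 only in the 2 tdTomato-positive tubes in v3.1.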

How the data were processed

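Per the file headers, the deposited values are raw UMI counts per gene and barcode, with Cell Ranger 8.0.1 as the writer of the GEM-X matrix and 7.1.0 as that of the v3.1 matrix; the submitters' processing notes name Cell Ranger 7.0.0 and mm10. The matrices were tied to the chemistries by their names and these versions. Barcodes stayed if they had 1000 genes or more and no more than 10% of UMIs from mitochondrial genes (20140 GEM-X and 16721 v3.1; 371 and 1034 left out). Hashtags were called by a 2-component Gaussian mixture of log counts (scikit-learn 1.9.0). Only cells assigned a single hashtag entered the results; 4455 cells with several and 76 with none were left out. Scrublet's own threshold called 0 cells, so a score of 0.2, set after the scores were seen, marked 4.09% and 3.77% of kept cells; these stay in the main results.

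Clusters came from Leiden at resolution 1 (scanpy 1.11.5, leidenalg 0.10.2; 2000 variable genes, 30 components, 30 neighbours; no chemokine, cell cycle, mitochondrial, ribosomal, histone or haemoglobin genes). A name needed at least 3 markers and more than 50% of those detected raised by 0.5 on the log2 scale; this rule, an exception for clusters led by immunoglobulin genes and the UMI limits for rich cells were set after the data were seen. A name means these markers and not function. The granulocyte-monocyte-like cluster also had neutrophil genes among its leading ones.

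Counts were summed per tube (gates; mouse as a block) and per tube and chemistry (tube as a block), and tested in R 4.3.3 by the quasi-likelihood method of edgeR 4.0.16, after filterByExpr and TMM scaling, with Benjamini-Hochberg adjustment at 0.05. The SE is the log2 fold change over the square root of F and rests on a spread pooled over genes. The numbers pair the tubes because each animal gave 1 positive and 1 negative tube; the mouse difference in the positive tubes correlated with that in the negative tubes (r = 0.79 across 12733 genes, which are not replicates). The fits were tested on simulated counts. DESeq2 1.42.0 was an alternative. The members and lists were chosen with earlier results of these data known. All 6 members are named in each result; up to 4 called members of each list, and for likeness the 5 genes with the highest mean correlation, of which 1 is not reported here for Ccl5. Coordinates are GENCODE M21's, promoters RefSeq's (4 of 6 members matched).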

Additional observations from a re-analysis of the deposited data

Results flagged for a closer look

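Each of the following was a change of direction between 2 sets of tubes with no test of the difference itself. The Ccl5 ratio of positive over negative tubes was 0.40 and 0.14 on the log2 scale in GEM-X (mouse 1 and mouse 2), and -0.69 and -1.31 in v3.1. The same counts gave a GEM-X over v3.1 ratio of 0.37 and 0.60 in the positive tubes, and of -0.72 and -0.86 in the negative tubes. For Ccl4 the positive over negative ratio was -0.20 and -0.039 in GEM-X, and 0.041 and 0.094 in v3.1. For Ccl9 it was 0.24 and 0.032 in mouse 1 (GEM-X, then v3.1), and -0.047 and -0.011 in mouse 2. The differences were not tested.

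Among the cells outside the comparisons, the 4455 with several hashtags, with a median of 17578 UMIs, had 24.7 CPM of Ccl4 and 9.98 CPM of Ccl5. The cells with 1 hashtag had 22.2 and 8.66 CPM. The intervals of the pairs do not overlap but cover counting error only. Single cells held up to 80 Ccl5 UMIs among those with several hashtags and up to 148 among those with 1, so no difference in Ccl5 is read from them.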

How the results depend on the processing

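The number of genes called between the gates was 132 with the mouse as a block and 0 without a replicate block (102 at an unadjusted p under 0.05). It was 208 without the filter on low counts, 5 by DESeq2, 1 in GEM-X and 61 in v3.1 alone, 20 without Scrublet's cells, 47 without the named lineages other than HSC, 47 at 5% mitochondrial UMIs, and 0 to 1 when a tube was left out (without a block, the lone tube of a gate taken to vary like the other gate's; the lowest, 0, came without the positive tube of mouse 1 and the negative one of mouse 2). Other size factors (94) and leaving out leading cells (128) stayed within 1.5 times. Cxcl10 was not called without the block (1.85), nor with any tube left out (1.33 to 2.69), nor in GEM-X. There its fitted value reversed (-1.70), while the positive tube of mouse 2 stayed above the negative tube of that mouse. Cxcl10 stayed called by DESeq2 (1.985), without leading cells (1.85), without the named lineages (1.32) and in v3.1. The same held with other size factors, without the low-count filter, without Scrublet's cells and at 5% mitochondrial UMIs. Ccl5 reversed in GEM-X (0.27) and without the named lineages (0.44), and ran from -0.70 to 0.20 over the tubes left out; it was called lower without the low-count filter, in v3.1 and without leading cells, and called higher without the named lineages. Ccl4 reversed in v3.1 (0.076) and without the named lineages (0.030), and ran from -0.10 to 0.061 over the tubes left out; Ccl9 ran from -0.31 to 0.40. Between the chemistries the counts stayed within 9423 to 11832 and no call of Ccl4 was lost. Ccl6 reversed in DESeq2 (-0.0048) and ran from -0.11 to 0.17 over the tubes left out. Ccl3 (-0.20), Ccl9 (-0.24) and Ccl5 (-0.29) were not called without the tube block; Ccl5 also not by DESeq2 or without either negative tube. Class shares at other clustering resolutions stand beside Ccl3 and Ccl4 in the text; at resolution 0.5 no cluster took the granulocyte-monocyte-like name. The causes were not tested. Leaving out cells with at least 5 UMIs of Ccl5 or Cxcl10 was chosen after seeing the data. With 2 mice, and 428 and 443 UMIs, Cxcl10 and Ccl6 had little depth.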
